A study of Danio rerio with 15 samples.

Results

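The genes described here are those of presynaptic vesicle release, the synaptotagmins, synapsins, synaptophysins, SV2 and synaptogyrin proteins, VAMPs, SNAP-25 genes, syntaxins, syntaxin-binding proteins, complexins, Rab3 family, RIM and Munc13 genes, chosen by the start of their symbols and by a mean of 1 CPM or more over 15 libraries. CPM are counts relative to the size of their library, scaled with TMM factors. Such a symbol was carried by 84 of the 14971 genes measured, and 73 of them reached the mean of 1 CPM; the 11 below it are not analysed further. Just inside the limit were stx17 at 1.03, vamp8 at 1.28 and syngr2a at 1.33 CPM, and just outside it cplx3a at 0.896, syt8 at 0.587 and sv2ba at 0.295 CPM. The symbol pattern also took in 25 genes of other membrane traffic, such as the syntaxins of Golgi and endosomes, VAMPs beyond vamp2, rab30 to rab39 and the regulators of Rab3, which are described last in the comparison of males. The other 48 members are called release genes below. They comprise 12 synaptotagmins, 4 synapsins, 8 vesicle membrane proteins, 2 vesicle SNAREs, 4 plasma membrane SNAREs, 11 SNARE regulators and 7 genes of docking and priming.

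The samples were brain tissue of zebrafish (Danio rerio) exposed for 56 days to dibromoacetonitrile (DBAN), which forms as a by-product when water that holds bromide is disinfected. Females were kept at 0, 40 or 200 µg/L DBAN and males at 40 or 0 µg/L, and each of the 5 groups gave 3 poly(A) RNA libraries. The sources used here name neither the strain and age of the fish nor how many fish went into a library. A p-value below therefore refers to the spread among libraries within the groups fitted together, estimated in part over all genes. That spread may be technical. The comparisons ask which transcripts differed with exposure in each sex and between the doses in females.

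Neurons store transmitter in synaptic vesicles and release it when calcium enters the terminal. VAMP on the vesicle and syntaxin and SNAP-25 on the plasma membrane zip into one SNARE complex that pulls the membranes together. Munc18 proteins hold and template the syntaxin, Munc13 and RIM proteins dock and prime the vesicle with Rab3, complexins clamp the nearly zipped complex, and synaptotagmins sense calcium and trigger fusion. Synapsins tether vesicles in a reserve pool behind the active zone. Teleost fish carry many of these genes as a and b copies from a genome duplication in their ancestry.

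The libraries held 10488947 to 49388334 counts, and of the values from 1 to 40 a share of 44.5% were multiples of 4, against 25% if evenly spread. The median count of rare genes (genes with a count of 0 in 10 or more of the remaining 14 libraries) was 39, 40.5 and 132 in the males at 40 µg/L, against 8, 9 and 8 in the male controls. In females this median was 8, 11 and 8 in controls, 28, 8 and 35 at 40 µg/L, and 10, 17 and 8 at 200 µg/L. Genes at a count of 0 numbered 3900, 3123 and 5172 in the males at 40 µg/L and 1435, 1637 and 1831 in the male controls. Members at a count of 0 numbered 6, 1 and 12 in the males at 40 µg/L and 0 in every male control. In males, exposure and these differences between libraries cannot be told apart. Of the members 10 are listed on an alternative contig, 6 of them (syn1, rab3aa, rab3c, rab33a, stx6 and stxbp6l) on a chromosome too, and 4 (unc13a, stxbp5l, syt10 and stx5a) on the contig alone, so that their reads may be shared between copies. No source used here names the genome build behind the positions below.

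In males at 40 µg/L the release genes that changed all fell. Against the male controls 15 of 48 release genes fell and 0 rose, among them syt1a, the synapsins syn1 and syn2a, syngr1a, vamp1, vamp2, snap25a and unc13a. Over all 73 members 16 fell and 4 rose, a share of 27.4% (edgeR quasi-likelihood test, adjusted p under 0.05), where 7.25% of the 12454 genes tested fell, 8.38% rose and 15.6% changed in either direction. The median log2 fold change of the members was -0.73, against -0.16 over all genes tested. The summed CPM of the release genes was 11072 to 12667 in the exposed males, against 15244 to 16009 in the male controls. Abundant genes weigh heavily in this sum. snap25a averaged 2504 CPM in exposed males and 4003 CPM in male controls, and syt1a 829 and 1706 CPM. snap25b went the other way, with 2693 and 1981 CPM. Of the 48 release genes 34 had a negative log2 fold change. The matching share over all genes was not counted in males. Among the members 35 of 73 had all exposed libraries below all controls, a share of 47.9%, against 27.7% of all genes, and 9 had them all above, 12.3% against 17.0%.

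**Figure D1:**
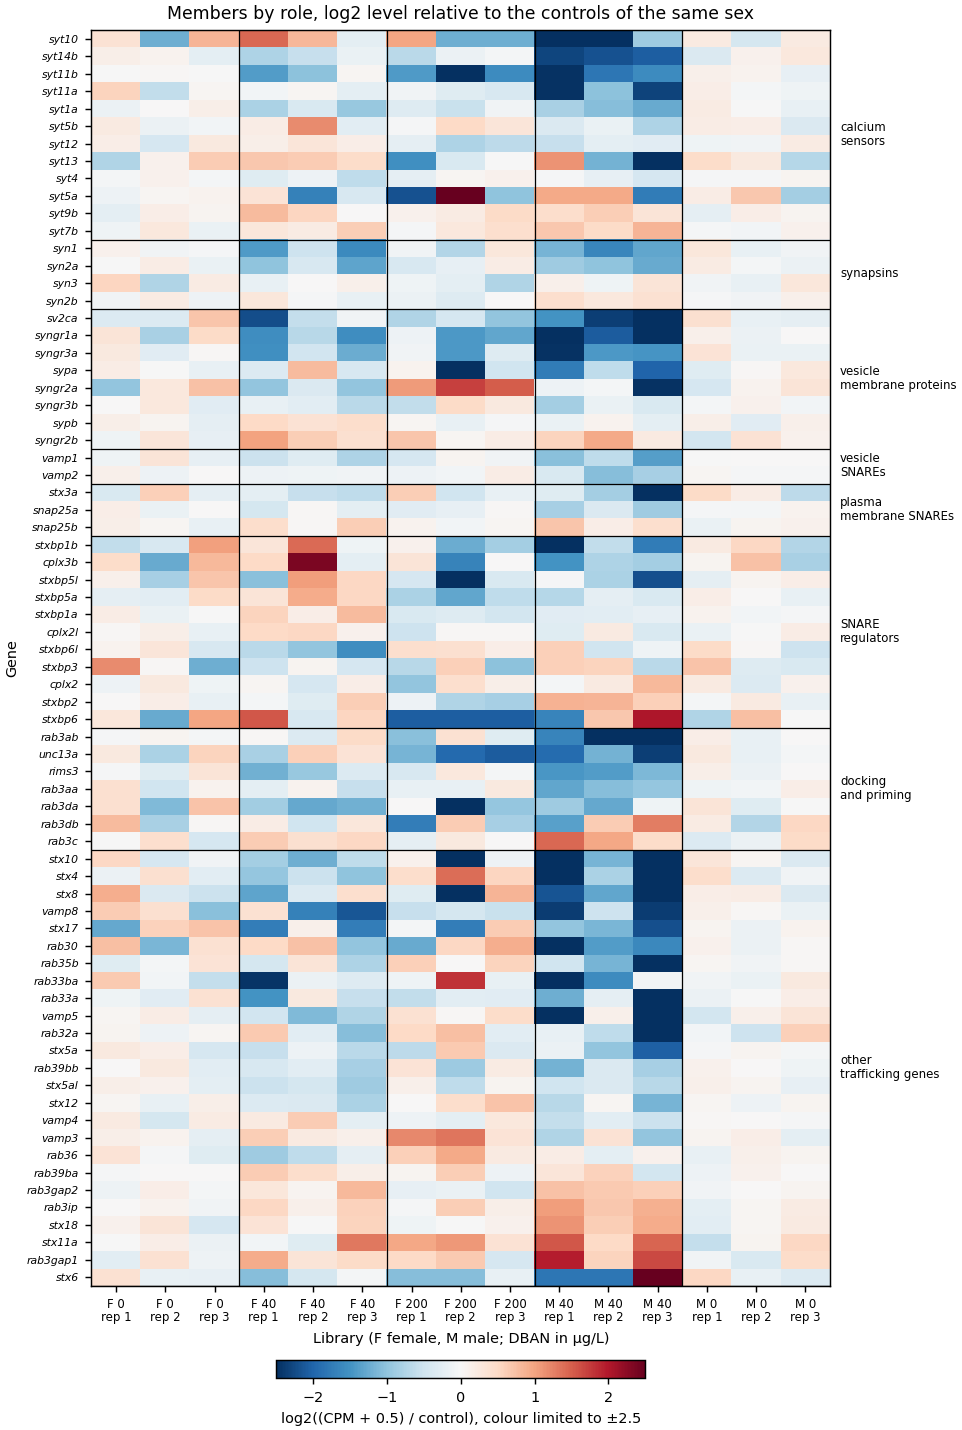
Each row is 1 of 72 of the 73 members and each column 1 library; colour gives the log2 ratio of CPM + 0.5 to the mean of the same-sex controls, limited to 2.5 in each direction. F is female and M is male, with the DBAN concentration in µg/L; blue cells gather in the 3 columns of males at 40 µg/L, where the median of the members was -0.71, -0.37 and -0.89.

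Among the calcium sensors, syt1a, a zebrafish copy of synaptotagmin 1, the sensor of fast synchronous release (chromosome 4, 21129752 to 21315399), had 967, 814 and 706 CPM in the males at 40 µg/L, against 1948, 1682 and 1487 CPM in the male controls. The groups did not overlap, and syt1a was 2.06-fold lower in exposed males (log2 fold change -1.04 ± 0.18 SE, adjusted p = 0.0145). syt14b had 14.9, 16.1 and 17.6 CPM in the males at 40 µg/L, against 58.0, 80.7 and 90.4 CPM in the male controls (log2 fold change -2.23 ± 0.24 SE, adjusted p = 0.00838). syt11b had 14.3, 22.8 and 26.9 CPM in the males at 40 µg/L, against 88.1, 86.3 and 69.9 CPM in the male controls (log2 fold change -1.93 ± 0.29 SE, adjusted p = 0.0116). Its copy syt11a had 51.7, 141 and 57.5 CPM in the males at 40 µg/L, against 322, 277 and 267 CPM in the male controls (log2 fold change -1.79 ± 0.40 SE, adjusted p = 0.0317). In mammals synaptotagmin 11 and synaptotagmin 14 lack the residues that bind calcium, so that 3 of the 4 synaptotagmin genes that fell belong to types that are not calcium sensors despite the family name. The other 8 synaptotagmins did not pass. Of these, syt7b and syt9b had every exposed library above every control, and syt10 and syt12 had every one below. Over all genes 17.0% lay above without overlap and 27.7% below.

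Of the 4 synapsins, 2 fell. syn1 had 94.0, 68.3 and 86.5 CPM in the males at 40 µg/L, against 257, 186 and 200.0 CPM in the male controls (log2 fold change -1.37 ± 0.20 SE, adjusted p = 0.0113). syn2a (chromosome 23, 4751959 to 4775446) had 276, 254 and 213 CPM in the males at 40 µg/L, against 588, 492 and 464 CPM in the male controls (log2 fold change -1.06 ± 0.17 SE, adjusted p = 0.0127). Every exposed library lay below every control for both genes. The b copy, syn2b, lay the other way, with 802, 725 and 781 CPM in the males at 40 µg/L, against 587, 567 and 658 CPM in the male controls, and did not pass (log2 0.35, adjusted p = 0.109). syn3 averaged 12.5 ± 1.86 CPM in exposed males and 11.5 ± 2.11 CPM in male controls.

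The vesicle membrane proteins include the synaptophysins and synaptogyrins, which span the vesicle membrane several times and are among its most abundant proteins. syngr1a (chromosome 3, 21251631 to 21280373) had 12.9, 20.1 and 13.0 CPM in the males at 40 µg/L, against 94.7, 78.0 and 87.4 CPM in the male controls, a 5.64-fold lower mean (log2 fold change -2.50 ± 0.26 SE, adjusted p = 0.00838). This was the smallest adjusted p among the members, shared with syt14b. syngr3a had 18.6, 38.7 and 37.9 CPM in the males at 40 µg/L, against 133, 93.7 and 94.4 CPM in the male controls (log2 fold change -1.75 ± 0.34 SE, adjusted p = 0.0207). The synaptophysin gene sypa missed the threshold with 84.8, 185 and 71.0 CPM in the males at 40 µg/L, against 232, 293 and 346 CPM in the male controls (log2 fold change -1.35 ± 0.38 SE, adjusted p = 0.0546). Its copy sypb had 1054, 1248 and 997 CPM in the males at 40 µg/L, against 1303, 969 and 1290.4 CPM in the male controls, and the groups overlapped (adjusted p = 0.738). The low-level SV2 gene sv2ca had 2.34, 1.07 and 0 CPM in the males at 40 µg/L, against 10.0, 6.54 and 6.36 CPM in the male controls (adjusted p = 0.301).

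Both vesicle SNAREs of the synapse fell. vamp1 had 114, 151 and 90.8 CPM in the males at 40 µg/L, against 233, 236 and 239 CPM in the male controls (log2 fold change -0.99 ± 0.21 SE, adjusted p = 0.0253). vamp2, the synaptobrevin of most central synapses, had 196, 121 and 143 CPM in the males at 40 µg/L, against 261, 249.9 and 249.9 CPM in the male controls (log2 fold change -0.73 ± 0.19 SE, adjusted p = 0.0486). Of the plasma membrane SNAREs, snap25a fell, one of the zebrafish SNAP-25 genes. snap25a had 2248, 3115 and 2149 CPM in the males at 40 µg/L, against 3932, 3849.8 and 4226 CPM in the male controls (log2 fold change -0.68 ± 0.18 SE, adjusted p = 0.0469). None of the exposed libraries reached the lowest control for any of these 3 SNARE genes. snap25b had every exposed library above every control, with 3206, 2224 and 2649.9 CPM in the males at 40 µg/L, against 1753, 2064 and 2127 CPM in the male controls, and did not pass (log2 0.44, adjusted p = 0.123).

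None of the 11 SNARE regulators passed. stxbp1a, which encodes Munc18-1, a binding partner of syntaxin, had 917, 921 and 966 CPM in the males at 40 µg/L, against 1186, 1059.8 and 1097 CPM in the male controls (log2 -0.25, adjusted p = 0.224). stxbp2, the Munc18 of mast cells, platelets and epithelia in mammals, came nearest to the threshold with 58.6, 57.6 and 48.3 CPM in the males at 40 µg/L, against 30.8, 37.4 and 27.7 CPM in the male controls (log2 0.78, adjusted p = 0.0501). The complexin gene cplx2l overlapped between the groups, with 512, 738 and 486 CPM in the males at 40 µg/L, against 558, 629.7 and 712 CPM in the male controls (adjusted p = 0.737).

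Of the 7 docking and priming genes 3 fell. unc13a, which encodes the priming factor Munc13-1, had 28.8, 48.6 and 21.3 CPM in the males at 40 µg/L, against 131, 97.1 and 107 CPM in the male controls (log2 fold change -1.76 ± 0.33 SE, adjusted p = 0.0197). rab3ab, a copy of the vesicle GTPase Rab3A (chromosome 11, 6819049 to 6850590), had 16.1, 6.29 and 3.51 CPM in the males at 40 µg/L, against 58.4, 45.8 and 51.9 CPM in the male controls, 6.03-fold lower (log2 fold change -2.60 ± 0.55 SE, adjusted p = 0.0273). rims3, a short RIM protein without the Rab3-binding part, had 5.92, 6.14 and 7.60 CPM in the males at 40 µg/L, against 18.9, 15.2 and 17.2 CPM in the male controls (log2 fold change -1.38 ± 0.37 SE, adjusted p = 0.0472). The other Rab3A copy, rab3aa, also had no overlap, with 4.71, 5.60 and 6.09 CPM in the males at 40 µg/L, against 11.4, 11.7 and 13.9 CPM in the male controls, but did not pass (adjusted p = 0.114). rab3c overlapped between the groups, with 59.8, 43.3 and 30.1 CPM in the males at 40 µg/L, against 17.1, 19.7 and 30.5 CPM in the male controls (log2 0.98, adjusted p = 0.0967).

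The 4 members that rose were all among the other trafficking genes, and 2 of them switch Rab3 off. rab3gap1, the catalytic subunit of the Rab3 GTPase-activating complex, had 575, 216 and 459 CPM in the males at 40 µg/L, against 138, 113 and 202 CPM in the male controls (log2 fold change 1.46 ± 0.38 SE, adjusted p = 0.047). Its partner subunit rab3gap2 had 209, 198 and 191 CPM in the males at 40 µg/L, against 119, 128 and 133 CPM in the male controls (log2 fold change 0.66 ± 0.13 SE, adjusted p = 0.0214). rab3ip, which encodes Rabin8, an activator of Rab8, had 259.6, 201 and 232 CPM in the males at 40 µg/L, against 106, 130.1 and 145 CPM in the male controls (log2 fold change 0.86 ± 0.17 SE, adjusted p = 0.0221). The groups did not overlap for these 3 genes. stx18, a syntaxin of the endoplasmic reticulum, averaged 97.2 ± 16.5 CPM in exposed males and 52.2 ± 8.70 CPM in male controls (adjusted p = 0.034). The Golgi GTPase gene rab30 fell, with 2.96, 6.98 and 5.94 CPM in the males at 40 µg/L, against 20.8, 17.4 and 19.8 CPM in the male controls (log2 fold change -1.86 ± 0.45 SE, adjusted p = 0.0376). The other 20 genes of this group did not pass. Of these, 11 had every exposed library below every control, as had 27.7% of all genes. Several of the 11 were low-level genes at 0 CPM in an exposed library. Among them was stx17, with a mean of 1.03 CPM over the 15 libraries. It averaged 0.399 CPM in exposed males and 1.80 CPM in male controls. Its place among the members, and so in the counts without overlap, therefore rests in part on the male controls.

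**Figure D2:**
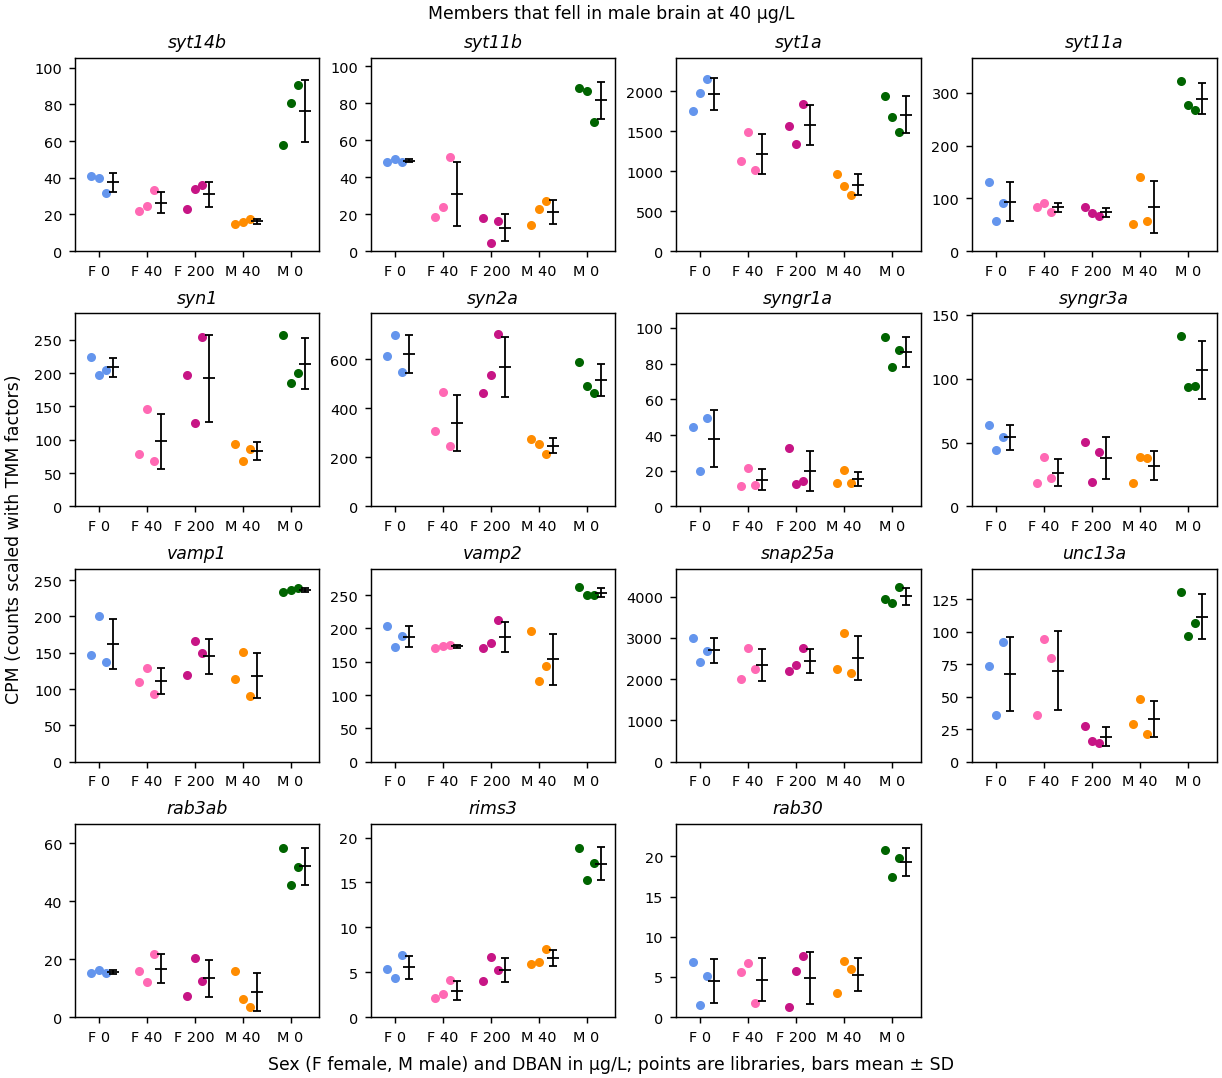
CPM of 15 of the 16 members that fell in males at 40 µg/L, in every library of the 5 groups; points are libraries and bars the mean ± SD of 3 libraries, and each panel has its own linear axis from 0. In all 15 panels the 3 male libraries at 40 µg/L lie below the 3 male controls.

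The count of male calls depended on single libraries. It was 5, 4 and 7 without male control replicate 1, 2 or 3, and 12, 25 and 16 without 40 µg/L replicate 1, 2 or 3, by the same test. Over all genes the count moved too, from 1947 in the main fit. It was 360, 286 and 705 without male control replicate 1, 2 or 3. Without 40 µg/L replicate 1, 2 or 3 it was 1154, 3144 and 1647. syngr1a, syt14b and syn1 passed in all 6 of these fits. syn2a missed the threshold without male control replicate 2 (adjusted p = 0.0543), and syt1a and syt11b missed it without male control replicate 1 (adjusted p = 0.0551 and 0.0533) or 2 (0.0615 and 0.0523). A further 9 genes that fell passed in 1 to 3 of the 6 fits, and the 4 that rose also in 1 to 3. DESeq2 called 29 of the 73, and 3270 of the 13440 genes with an adjusted p.

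Cell type markers also differed between these groups, and their part in the result was not tested. The summed CPM of 10 neuron markers was 6021 to 6511 in exposed males, against 4296 to 4781 in male controls, with 4 genes higher (gap43, nefma, nefmb and neflb) and elavl3 lower. The sum of 10 radial glia markers was 3054 to 3482 in exposed males, against 4463 to 5371 in male controls, with cx43, slc1a2b and s100b lower. No marker of these 2 lists was at 0 in any library. Microglia markers summed to 702 to 1174 CPM in exposed males, against 416 to 615 in male controls, with cd74a of 8 higher; csf1ra, p2ry12 and ctss2.1 were at 0 in the third exposed library. The 8 telencephalon markers summed to 555 to 752 CPM in exposed males, against 399 to 541 in male controls, with eomesa and neurod6b higher and emx2 lower. Other lists overlapped. Those of hindbrain and cerebellum summed to 1226 to 2668 CPM in exposed males and 1801 to 2459 in male controls. Of ca8, pvalb7 and egr2b in that list, 1 was higher and 2 were lower. Oligodendrocyte markers summed to 941 to 1543 CPM in exposed males and 1210 to 1247 in male controls, with mag lower. Yet 4 of the 8 tested had a negative log2 fold change, and their median was 0.19. Eye and pineal markers summed to 19.3 to 83.5 CPM in exposed males and 16.7 to 28.3 in male controls. Of the 5 tested 3 had a negative log2 fold change, and gnat2, at 0 in every exposed library, was lower. In bulk tissue fewer cells of a type and less RNA per cell cannot be told apart.

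**Figure D3:**
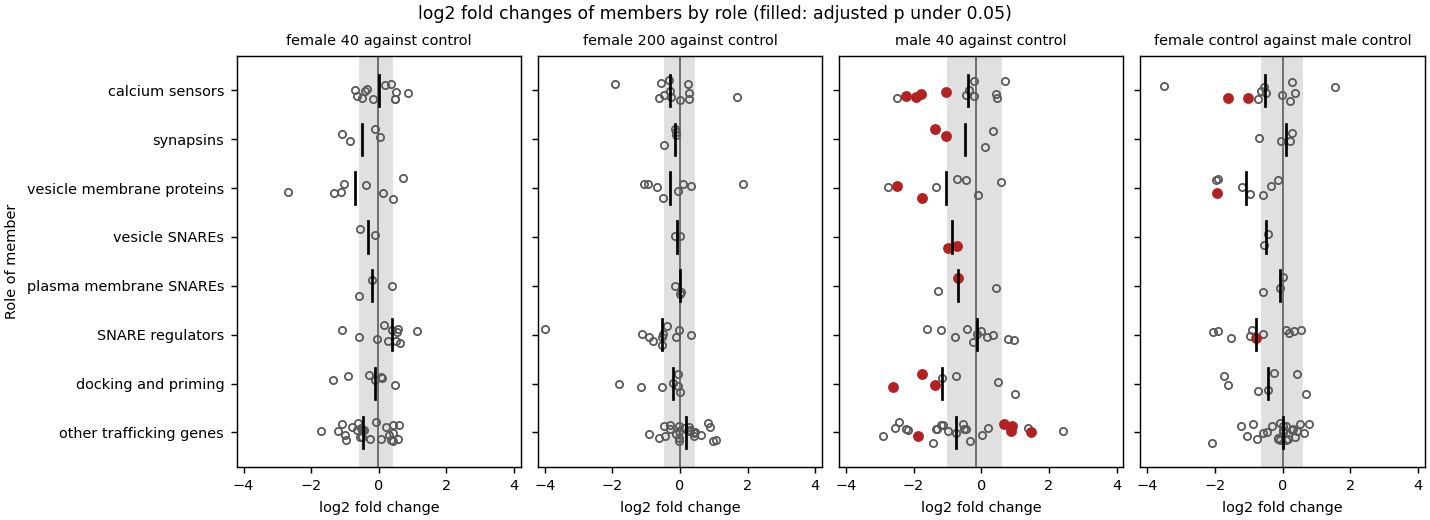
log2 fold changes of 72 of the 73 members in 4 comparisons, by role; filled points passed (adjusted p under 0.05), short black bars are medians of a role, the grey line is the median over all genes tested and the grey band their middle 50%. The horizontal axis ends at 4 in each direction, and 1 point beyond it (stxbp6, at 0 counts in all 3 libraries of females at 200 µg/L) is drawn at its edge. Filled points left of the line are frequent in males at 40 µg/L, where 16 members fell.

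The a and b copies of 11 genes could be compared within the libraries. In males the log2 ratio of the a to the b copy had no overlap between exposed libraries and controls for 7 of them, 63.6% against 36.2% of the 1180 pairs of symbols ending in a and b with the same mean of 1 CPM or more. The ratio of syn2a to syn2b was lower by 1.41 on the log2 scale in exposed males, that of sypa to sypb by 1.36, that of syngr3a to syngr3b by 1.33 and that of snap25a to snap25b by 1.13. These differences are given as descriptions, with no test. The 3 others were rab3a, where rab3ab was the copy that fell, rab39b and the low-level syngr2. syt11 differed from these in that both copies fell and the ratio changed by 0.01. Several of these ratios also differed without overlap between the unexposed controls of the sexes. In female against male controls the ratio was lower by 1.35 for syp, 0.81 for syngr3 and 0.59 for snap25, and higher by 1.43 for rab3a. It overlapped between the controls for syn2, rab39b and syngr2. The share over all pairs was not counted for the controls. In females at 40 µg/L the ratio did not overlap with that of female controls for 4 pairs, 36.4% against 23.6% of all pairs. It was lower by 0.93 on the log2 scale for syn2, by 1.11 for rab3d and by 1.46 for syngr2, and higher by 0.90 for rab39b.

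**Figure D4:**
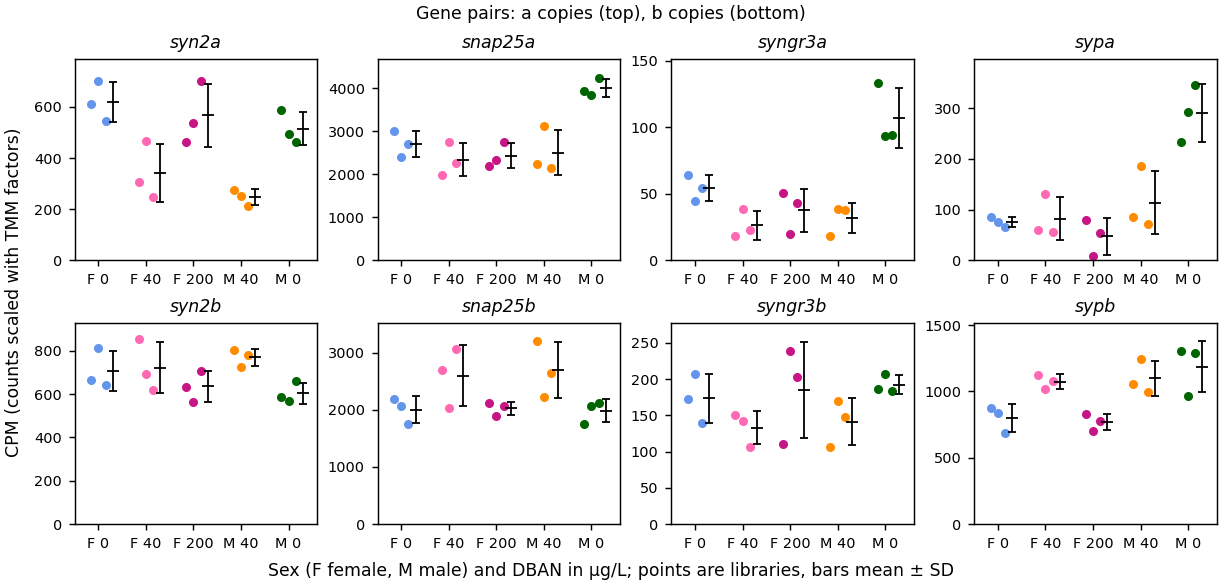
CPM of 4 pairs of gene copies in every library, a copies above and b copies below; points are libraries, bars the mean ± SD of 3 libraries, and each panel has its own linear axis from 0. In males at 40 µg/L the 4 a copies lie below the male controls, while syn2b and snap25b lie above them.

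In females at 40 µg/L no member passed against the female controls. The count was 0 of 72 by edgeR, where 0.0952% of the 12601 genes tested were higher and 0.143% lower; stx6 was too low to be tested. At an unadjusted p under 0.05 there were 12 members, 9 lower (7.80% of all genes) and 3 higher (7.54% of all genes). DESeq2 called 4 members, all lower (stxbp6l, syn1, syn2a and syt1a). It called 796 of the 9161 genes with an adjusted p, in either direction. syt1a had 1128, 1498 and 1016 CPM in the females at 40 µg/L, against 1756, 1977 and 2157 CPM in the female controls (log2 fold change -0.69 ± 0.19 SE, adjusted p = 0.114). syn2a had 308, 468 and 248 CPM at 40 µg/L, against 613, 701 and 547 CPM in the controls (log2 -0.86, adjusted p = 0.131). syn1 had 78.2, 145 and 68.8 CPM at 40 µg/L, against 224, 197 and 205 CPM in the controls (log2 -1.10, adjusted p = 0.132). For these 3 genes all exposed libraries lay below all controls, and replicate 2 was nearest to the controls. Replicate 2 was also the exposed library with the lowest rare-gene median, and a link between that median and these values was not tested. Without replicate 2 at 40 µg/L these 3 genes passed (adjusted p = 0.0415 for syt1a, 0.0352 for syn2a and 0.0335 for syn1). In that fit 289 of 12929 genes passed, against 30 of 12601 in the main fit.

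Other members leaned either way in these females. sypb had 1124, 1017 and 1082 CPM at 40 µg/L, all above the 879, 839 and 684 CPM of the controls (log2 0.43, adjusted p = 0.201). stxbp1a had 946, 726 and 1123 CPM at 40 µg/L, against 733, 574 and 646 CPM in the controls, and overlapped (adjusted p = 0.197). Of the 11 SNARE regulators 8 had a positive log2 fold change, and both vesicle SNAREs a negative one. Members without overlap were 14 lower, 19.4% against 13.7% of all genes, and 4 higher, 5.56% against 11.3%. The median of the members was -0.14, against -0.03 over all genes. The 8 telencephalon markers summed to 758 to 1000 CPM at 40 µg/L and 217 to 293 CPM in the controls, with foxg1a higher. The neuron markers summed to 5229 to 6230 CPM at 40 µg/L and 4508 to 5142 CPM in the controls. Markers of hindbrain and cerebellum summed to 1578 to 2882 CPM at 40 µg/L and 3224 to 3761 CPM in the controls, and those of oligodendrocytes to 576 to 782 CPM at 40 µg/L and 899 to 1206 CPM in the controls. Depth was 33198859 to 49388334 counts at 40 µg/L and 18365050 to 22630829 in the controls; the part of the markers and of depth in these values was not tested.

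In females at 200 µg/L no member passed either. Of 72 members tested 0 passed by edgeR, where 0.00794% of all genes were higher and 0.0476% lower. At an unadjusted p under 0.05 5 members were lower (unc13a, stxbp6, syt11b, stxbp5a and syt12), where 6.26% of all genes were, and vamp3 was higher, where 4.57% of all genes were. DESeq2 called unc13a and syt11b, both lower, and 333 of the 8895 genes with an adjusted p in either direction. unc13a had 27.9, 15.9 and 14.4 CPM in the females at 200 µg/L, against 74.0, 36.1 and 92.5 CPM in the female controls (log2 fold change -1.79 ± 0.44 SE, adjusted p = 0.174). syt11b had 18.0, 4.13 and 16.0 CPM at 200 µg/L, against 48.4, 49.9 and 48.4 CPM in the controls (log2 -1.93, adjusted p = 0.214). stxbp6, which encodes amisyn, a SNARE-binding protein, was at 0 counts in all 3 libraries, against 2.0, 0.369 and 3.59 CPM in the controls. If a fragment gave 4 counts, which the sources used here do not state, 3 fragments would have given 0.656, 1.13 and 0.996 CPM at 200 µg/L. The control at 0.369 CPM lay below these values and those at 2.0 and 3.59 CPM above them. On that reading the difference is near the depth limit. Negative log2 fold changes were found for 50 of 72 members, 69.4% against 49.8% of all genes. They were found for 10 of 11 SNARE regulators, 7 of 7 docking and priming genes, 4 of 4 synapsins and 2 of 2 vesicle SNAREs. The other roles had 3 of 4 plasma membrane SNAREs, 8 of 12 synaptotagmins, 5 of 8 vesicle membrane proteins and 11 of 24 other trafficking genes. Members without overlap were 7 lower, 9.72% against 10.4% of all genes, and 4 higher, 5.56% against 7.48%. The median of the members was -0.12, against 0.0032 over all genes. Depth was 10488947 to 17684130 counts at 200 µg/L and 18365050 to 22630829 in the controls. Markers of hindbrain and cerebellum summed to 1785 to 3095 CPM at 200 µg/L and 3224 to 3761 CPM in the controls. The single markers mostly went the other way: 3 of the 9 tested had a negative log2 fold change, and their median was 0.89. Those of eye and pineal summed to 60.1, 964 and 78.7 CPM at 200 µg/L, against 39.8 to 59.6 CPM in the controls, and those of skeletal muscle to 121, 21.8 and 8.21 CPM at 200 µg/L, against 6.48 to 14.99 CPM in the controls. The part of depth and of these markers in the values at 200 µg/L was not tested.

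Between the female doses 4 members passed. Of the 72 tested 3 were lower and 1 higher at 200 than at 40 µg/L (edgeR), where 2.06% of all genes were lower and 1.87% higher. Without overlap 11 members were lower, 15.3% against 13.4% of all genes, and 6 higher, 8.33% against 11.9%. stxbp1a, the Munc18-1 gene (chromosome 21, 13861649 to 13919422), had 497, 517 and 473 CPM at 200 µg/L, against 946, 726 and 1123 CPM at 40 µg/L (log2 fold change -0.91 ± 0.18 SE, adjusted p = 0.0281). stxbp5a, a tomosyn, a protein that inhibits release by occupying the SNAREs of the plasma membrane, had 46.6, 32.5 and 52.0 CPM at 200 µg/L, against 101, 154 and 116 CPM at 40 µg/L (log2 fold change -1.50 ± 0.28 SE, adjusted p = 0.0238). unc13a had 27.9, 15.9 and 14.4 CPM at 200 µg/L, against 35.8, 94.6 and 80.0 CPM at 40 µg/L (log2 fold change -1.85 ± 0.44 SE, adjusted p = 0.0463). stxbp6l, related to stxbp6 by symbol, was the member that was higher, with 49.5, 48.7 and 41.3 CPM at 200 µg/L, against 22.9, 18.2 and 12.1 CPM at 40 µg/L (log2 fold change 1.39 ± 0.30 SE, adjusted p = 0.0345).

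The groups did not overlap for these 4 genes, and the mean of the female controls lay between those of the doses for each of them. Their means over the concentrations of 0, 40 and 200 µg/L were 651 ± 79.9, 932 ± 199 and 495 ± 22.1 CPM for stxbp1a, and 37.4 ± 8.99, 17.7 ± 5.41 and 46.5 ± 4.50 CPM for stxbp6l. The count of 4 was 0 without replicate 1 or 3 of either dose, 4 without replicate 2 at 40 µg/L and 3 without replicate 2 at 200 µg/L. Over all genes 495 passed in the main fit. Without replicate 1, 2 or 3 this count was 11, 596 and 33 at 40 µg/L, and 243, 544 and 1 at 200 µg/L. DESeq2 called 13 members and 1428 of the 9696 genes with an adjusted p. Depth did not overlap between the doses, at 10488947 to 17684130 counts at 200 µg/L and 33198859 to 49388334 at 40 µg/L, and its part in the result was not tested. The 10 neuron markers summed to 4246 to 5333 CPM at 200 µg/L and 5229 to 6230 CPM at 40 µg/L, with gap43 and eno2 lower at 200 µg/L; s100b and fabp7a of the radial glia list were higher. The radial glia markers summed to 3914 to 4578 CPM at 200 µg/L and 3245 to 3682 CPM at 40 µg/L. The 8 telencephalon markers summed to 221 to 305 CPM at 200 µg/L and 758 to 1000.4 CPM at 40 µg/L, with neurod6b lower. The part of these markers was not tested either.

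**Figure D5:**
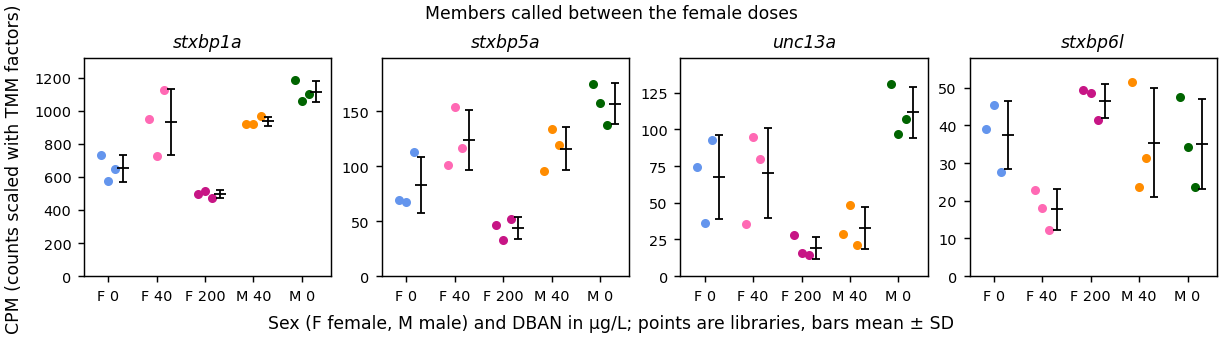
CPM of the 4 members that passed between the female doses, in every library of the 5 groups; points are libraries, bars the mean ± SD of 3 libraries, and each panel has its own linear axis from 0. stxbp1a, stxbp5a and unc13a are lower at 200 than at 40 µg/L in females, and stxbp6l is higher.

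The sexes were set side by side at 40 µg/L, each against its own controls. Of the 16 members that fell in males 13 had a negative log2 fold change in females at 40 µg/L, with a median of -0.60, and 15 in females at 200 µg/L, with a median of -0.24. The same shares were not counted for all genes that fell in males, so these counts have no background. The signs matched for 48 of 72 members, 66.7% against 67.9% of all genes, and for 28 of the 48 release genes, 58.3%. The difference of the effects was tested as the female minus the male log2 fold change, and 0 of 73 members passed by edgeR, as did 0.00% of 13149 genes. At an unadjusted p under 0.05 there were 12 members, all with a positive difference (16.4%, against 7.94% of all genes), and 0 with a negative one (6.58% of all genes). syt14b had the smallest p, with a difference of 1.73 ± 0.34 SE on the log2 scale (adjusted p = 0.142). rab3ab differed by 2.69 (adjusted p = 0.179). DESeq2 called 3 members, syt14b and rab3ab among them, and 503 of the 12913 genes with an adjusted p. Without male 40 µg/L replicate 1 or 2 the edgeR count was 1 and 5, and without any 1 of the other 10 libraries it was 0. Over all genes 5 and 369 passed without male 40 µg/L replicate 1 or 2, and 0 to 4 without any 1 of the other 10.

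The control brains of the sexes differed for 5 members, all lower in females. Of the 73 members 5 were lower and 0 higher in the female than in the male controls (edgeR), where 2.09% of all genes were lower and 2.31% higher. sypa had 86.3, 74.9 and 66.7 CPM in the female controls, against 232, 293 and 346 CPM in the male controls (log2 fold change -1.93 ± 0.39 SE, adjusted p = 0.0213). stxbp1a had 733, 574 and 646 CPM in the female controls, against 1186, 1059.8 and 1097 CPM in the male controls (log2 fold change -0.77 ± 0.16 SE, adjusted p = 0.0271). Also lower in the female controls were syt11a (log2 -1.62, adjusted p = 0.0323) and syt14b (log2 -1.02, adjusted p = 0.0353). Without overlap 30 members were lower in the female controls, 41.1% against 21.0% of all genes, and 5 higher, 6.85% against 18.9%. The count of 5 was 4, 0 and 2 without female control replicate 1, 2 or 3. It was 0, 0 and 1 without male control replicate 1, 2 or 3. Over all genes 579 passed in the main fit. Without female control replicate 1, 2 or 3 this was 286, 2 and 155, and without male control replicate 1, 2 or 3 it was 0, 0 and 110. DESeq2 called 18 members and 1742 of the 8974 genes with an adjusted p. Depth was 18365050 to 22630829 counts in the female controls and 35666401 to 42122528 in the male controls, and telencephalon markers summed to 217 to 293 CPM in female controls and 399 to 541 CPM in male controls, with bcl11ba, foxg1a and tbr1b of 8 lower. Markers of hindbrain and cerebellum summed to 3224 to 3761 CPM in female controls and 1801 to 2459 CPM in male controls. Yet 5 of the 8 tested had a negative log2 fold change, with a median of -0.32, and cbln1 was lower in females. Oligodendrocyte markers summed to 899 to 1206 CPM in female controls and 1210.0 to 1247 CPM in male controls. Those of eye and pineal summed to 39.8 to 59.6 CPM in female controls and 16.7 to 28.3 CPM in male controls. Radial glia markers summed to 3461 to 4834 CPM in female controls and 4463 to 5371 CPM in male controls, and overlapped. Of the 10 tested 6 had a negative log2 fold change, and cx43, slc1a2b and slc1a3b were lower in females. Of stmn2b, elavl4 and eno2 in the neuron list, 1 was higher and 2 were lower. The part of depth and of these markers in the result was not tested.

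This comparison and that of exposed with control males share the 3 male control libraries. Those libraries lay above all other 12 libraries, female and male, for 18 of 73 members, 24.7% against 8.73% of genes. They lay below them for 1 member, 1.37% against 5.08%. These shares of genes are over the 14358 with any count, a wider set than the genes tested above and one without a minimum level. The pattern was singled out after the values were seen. The 18 included syngr1a, snap25a, vamp1, vamp2, unc13a, rab3ab, rims3, sypa and syt14b, and 16 of them were release genes. Of the 16 members that fell in males at 40 µg/L, 13 were among these 18. These lists are not independent, since the 18 by definition had every male control above every exposed male library. The matching share over all genes was not counted. snap25a, for example, had 2248, 3115 and 2149 CPM in males at 40 µg/L, 3932, 3849.8 and 4226 CPM in male controls and 1994 to 3007 CPM in the 9 female libraries. syn1, syn2a and syt1a were not among the 18: the female controls had syt1a at 1756, 1977 and 2157 CPM and the male controls at 1948, 1682 and 1487 CPM.

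Other presynaptic genes, from a list of 60 symbols of which 42 are in the files, also leaned lower in males, with calls in both directions. Of the 42 tested 29 had a negative log2 fold change, with a median of -0.45, against -0.16 over all genes. At 40 µg/L 6 of the 42 fell, where 7.25% of all genes fell, and 3 rose, where 8.38% of all genes rose. napba, a SNAP protein that helps to take spent SNARE complexes apart, averaged 13.0 ± 1.13 CPM in exposed males and 97.5 ± 36.9 CPM in male controls (log2 -2.91, edgeR adjusted p = 0.00838). nsfa, the ATPase that does so, averaged 517 ± 94.7 CPM in exposed males and 937 ± 53.6 CPM in male controls (adjusted p = 0.0221). The endocytosis genes sh3gl2a and itsn1, the vesicular glutamate transporter gene slc17a6b and the calcium channel subunit gene cacna2d1a also fell. The synuclein gene sncb rose, with 2317 ± 222 CPM in exposed males and 1000.4 ± 205 CPM in male controls (adjusted p = 0.0113), as did the active zone scaffold gene caskb and the vesicular acetylcholine transporter gene slc18a3b. In females 0 of 41 passed at 40 or at 200 µg/L against controls (at an unadjusted p under 0.05, 6 were higher and 5 lower at 40 µg/L, where 7.54% and 7.80% of all genes were, and 10 were lower at 200 µg/L, where 6.26% of all genes were). Negative log2 fold changes were found for 30 of 41 at 200 µg/L, where 49.8% of all genes had one, with a median of -0.38. At 40 µg/L they were found for 19 of 41, with a median of 0.043. Between the doses 5 of 41 were lower at 200 µg/L (ppfia2, caskb, cacna2d2b, cacna1ba and sncb), where 2.06% of all genes were lower. In female against male controls 7 of 42 were lower, where 2.09% of all genes were.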

How the data were processed

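The authors deposited 2 tables of counts per gene and library, whole numbers not scaled to depth, with the 3 female control columns identical in both; every column was used. The submitters' processing notes name DESeq2, StringTie, STAR, Picard and FastQC, without version or role. Libraries were made from oligo-dT selected RNA with a TruSeq V2 kit, per the labels' protocols. Totals were 10488947 to 49388334 counts. Replicate libraries differed by more than sampling noise.

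The tests used edgeR 4.0.16 in R 4.3.3 (filterByExpr, TMM factors, robust quasi-likelihood F test, Benjamini-Hochberg adjustment over all genes tested, called at an adjusted p under 0.05). Females were fitted in 9 libraries, males in 6, and the difference between the sexes and between the controls in 12. Standard errors are the log2 fold change divided by the square root of F. Scripts were tested on simulated data. Members, role groups and lists were chosen with earlier results of these data known. The members named are those called in a comparison (or the 10 with the smallest p), the 2 most abundant of each role and the partner copies of named genes. Added after their values were seen were syt7b, syt9b, syt10, syn3, syt13, syt5a, stx6 and sv2ca. 1 member counts in the totals but is not reported here by name. Symbols were matched to RefSeq for 70 of the 73 members. Positions are those of the deposited tables. Alternatives were DESeq2 1.42.0, median-of-ratios scaling, no filter, counts divided by 4, non-robust dispersion, the replicate number as a block, and each library left out. With 3 against 3 libraries an exact permutation test of 1 gene cannot go below p = 0.10.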

Additional observations from a re-analysis of the deposited data

How the results depend on the processing

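The members numbered 73 with and without TMM factors. Under median-of-ratios scaling, no filter, counts divided by 4 and non-robust dispersion the counts of called members stayed at 0 in both female comparisons with controls and in the difference between the sexes, at 4 or 5 between the female doses, at 19 to 22 in males and at 5 to 7 between the controls. Over all genes these settings called 1762 to 2232 in males, 440 to 580 between the female doses and 486 to 709 between the controls. They called 1 to 125 genes in females at 40 µg/L, 7 at 200 µg/L and 0 for the difference between the sexes. DESeq2 called 4 members in females at 40 µg/L, 2 at 200 µg/L, 13 between the doses, 3 for the difference between the sexes and 18 between the controls. Its counts over all genes are given above. With the replicate number as a block the counts were 13 in males, of which 12 fell, 0 between the doses and 3 between the controls, and the medians of the members became -0.064 between the doses, against 0.072 without the block, and -0.40 between the controls, against -0.33 without it; the other counts stayed at 0. Over all genes the block gave 973 calls in males, 76 between the doses and 283 between the controls, against 1947, 495 and 579 without it. Deviations of same-numbered libraries correlated by -0.125 to 0.0767 in females and by 0.0276 to 0.0717 in males. Those of differently numbered libraries correlated by -0.123 to 0.123 in females and by -0.0869 to 0.0328 in males. With 3 libraries per group these values cannot decide whether the numbers pair the libraries.

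Leaving out 1 library gave 0 to 3 called members in females at 40 µg/L, 0 throughout at 200 µg/L, 0 to 4 between the doses, 4 to 25 in males, 0 to 5 for the difference between the sexes and 0 to 4 between the controls. The medians of the members ranged from -0.29 to -0.024 in females at 40 µg/L, from -0.22 to -0.055 at 200 µg/L, from -0.086 to 0.11 between the doses, from -0.89 to -0.56 in males, from 0.30 to 0.53 for the difference between the sexes and from -0.48 to -0.30 between the controls. In males 3 of the 40 named members changed sign, none of which had passed. Signs of the members not named were not followed across the settings. stxbp6l (log2 0.01) had -0.00851 with no filter and -0.00300 with the block, and -0.37 to 0.29 with 1 library left out. rab36 and stxbp6 had -0.089 to 0.13 and -0.22 to 1.5 with 1 library left out. Of 1138 values for named members 963 kept their direction and side of the threshold, 121 lost a call, 45 gained one and 9 reversed; the cause was not tested. The lowest depth was that of female 200 µg/L replicate 2, with 6 members at a count of 0.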

Other observations

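A few members varied more within a group than between groups. syt13, an atypical synaptotagmin, had 336, 68.4 and 22.9 CPM in the males at 40 µg/L, against 214, 183 and 94.4 CPM in the male controls, and 61.6, 114 and 164 CPM in females at 0, 167, 163 and 143 CPM at 40 and 36.1, 80.9 and 104 CPM at 200 µg/L. syt5a stood at 0.492, 36.0 and 1.74 CPM in females at 200 µg/L, against 3.60, 4.11 and 4.24 CPM in the female controls, with the middle value from the library of lowest depth. The same library had sypa at 8.72 CPM, against 80.0 and 53.1 CPM in the other 2. stx6, a syntaxin of the trans-Golgi network, had 0, 0 and 21.3 CPM in males at 40 µg/L, against 2.02, 1.05 and 0.887 CPM in male controls, so that its place among the members rests on 1 library.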
